A study of Mus musculus with 4 samples.

Results

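The 10 genes described here encode secreted growth factors that act on tumour cells or on vessels: Vegfa, Pdgfa and Pdgfb, Areg, Hbegf and Ereg, Igf1, Osm, Inhba and Gdf15. They were chosen by symbol, and all 10 were found among the 31053 features of both matrices. Their RNA was counted in single immune cells that had been sorted by FACS out of digested mammary tumours, to ask which class of immune cell carried each factor in each genotype. The labels name 2 Jagged1/PyMT samples and 2 PyMT samples, all from FVB/NJ mice aged 12 weeks. The mice of both genotypes carry PyMT, the polyoma middle T antigen that drives mammary tumours, and Jagged1/PyMT mice additionally carry Jagged1, a ligand of Notch receptors. Which promoter drives either allele is not given in the sources used here. Each genotype is 1 library, because its 2 samples lie in a single matrix in which no barcode is tied to a sample. No difference between genotypes could therefore be tested, no spread between mice is known, and every interval below covers counting error only.

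VEGF-A drives endothelial growth and permeability through VEGF receptors, and the PDGF chains, which pair as dimers, act on fibroblasts and pericytes through PDGF receptors. Amphiregulin, HB-EGF and epiregulin are made as membrane precursors, are shed by ADAM proteases and bind the EGF receptor or its relatives. Oncostatin M acts through gp130 with its own receptor subunit, activin A (a dimer of the chain that Inhba encodes) acts through SMAD proteins, and tumour-associated myeloid cells are known sources of many of these factors.

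The Jagged1/PyMT library held 55506773 UMIs and the PyMT library 36012036. After filtering, 7379 Jagged1/PyMT cells with a median of 4049 UMIs remained, against 7001 PyMT cells with a median of 3793. Clusters were named from marker genes, and a class is called "-like" because no protein was measured. Macrophage-like cells numbered 2244 in Jagged1/PyMT and 220 in PyMT, which was 32.8% of 6846 and 3.26% of 6739 cells in the immune classes. Jagged1/PyMT held 2405 T cell-like, 1301 B cell-like, 343 neutrophil-like, 227 monocyte-like and 97 dendritic cell-like cells. PyMT held 4585 T cell-like, 1376 B cell-like, 100 neutrophil-like, 110 monocyte-like and 91 dendritic cell-like cells. A further class of 229 Jagged1/PyMT and 257 PyMT cells is called NK or T cell-like: NK cell markers led it, but 81.2% and 79.8% of its barcodes held at least 3 UMIs of T cell core genes. The sort let through 51 Jagged1/PyMT and 104 PyMT epithelial-like cells. Another 449 Jagged1/PyMT and 134 PyMT barcodes formed a cluster in which most carried T cell together with macrophage core genes, and no class was given to them. Jag1, the gene that the genotype names, had 17.1 CPM (the gene's UMIs over all UMIs of the class, on the CPM scale) in Jagged1/PyMT and 2.09 CPM in PyMT over all kept cells. In macrophage-like cells, however, Jag1 stood at 12.3 CPM in Jagged1/PyMT and 14.04 CPM in PyMT. The libraries shared 57 cell barcodes.

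All 10 factors had their highest immune-class level in a myeloid class in both libraries. With at least 50 UMIs in the immune classes these were 9 of 9 factors in Jagged1/PyMT and 6 of 6 in PyMT, beside 55.1% of all such genes in Jagged1/PyMT and 53.5% in PyMT. In cells thinned to 1000 UMIs, NK or T cell-like cells were highest for Hbegf in Jagged1/PyMT and for Pdgfb in PyMT, and no Ereg UMI was left. The class differed by factor: Vegfa and Osm were highest in neutrophil-like cells, and Pdgfa, Pdgfb and Gdf15 in macrophage-like cells, in both libraries. Thinned to 1000 UMIs a cell, Pdgfa was highest in dendritic cell-like cells in both libraries, at 73.7 CPM in Jagged1/PyMT and 101.1 CPM in PyMT, and without doublet removal Osm was highest in monocyte-like cells in Jagged1/PyMT. Areg was highest in neutrophil-like cells in Jagged1/PyMT and in macrophage-like cells in PyMT, where the interval of neutrophil-like cells overlapped with it. Ereg was close to undetected everywhere, with 12 UMIs in the immune classes of Jagged1/PyMT and 2 in PyMT. Hbegf was the exception to an immune source, since its level in epithelial-like cells lay far above every immune class. In GRCm38 the genes lie apart except for Areg and Ereg, with Igf1 at chr10:87858265-87937042 (plus strand), Pdgfa at chr5:138976014-138997370 (minus strand), Pdgfb at chr15:79995874-80014977 (minus strand), Hbegf at chr18:36504927-36515805 (minus strand). The remaining ones are Osm at chr11:4236420-4241026 (plus strand), Inhba at chr13:16011851-16031621 (plus strand) and Gdf15 at chr8:70629393-70632456 (minus strand).

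**Figure D1:**
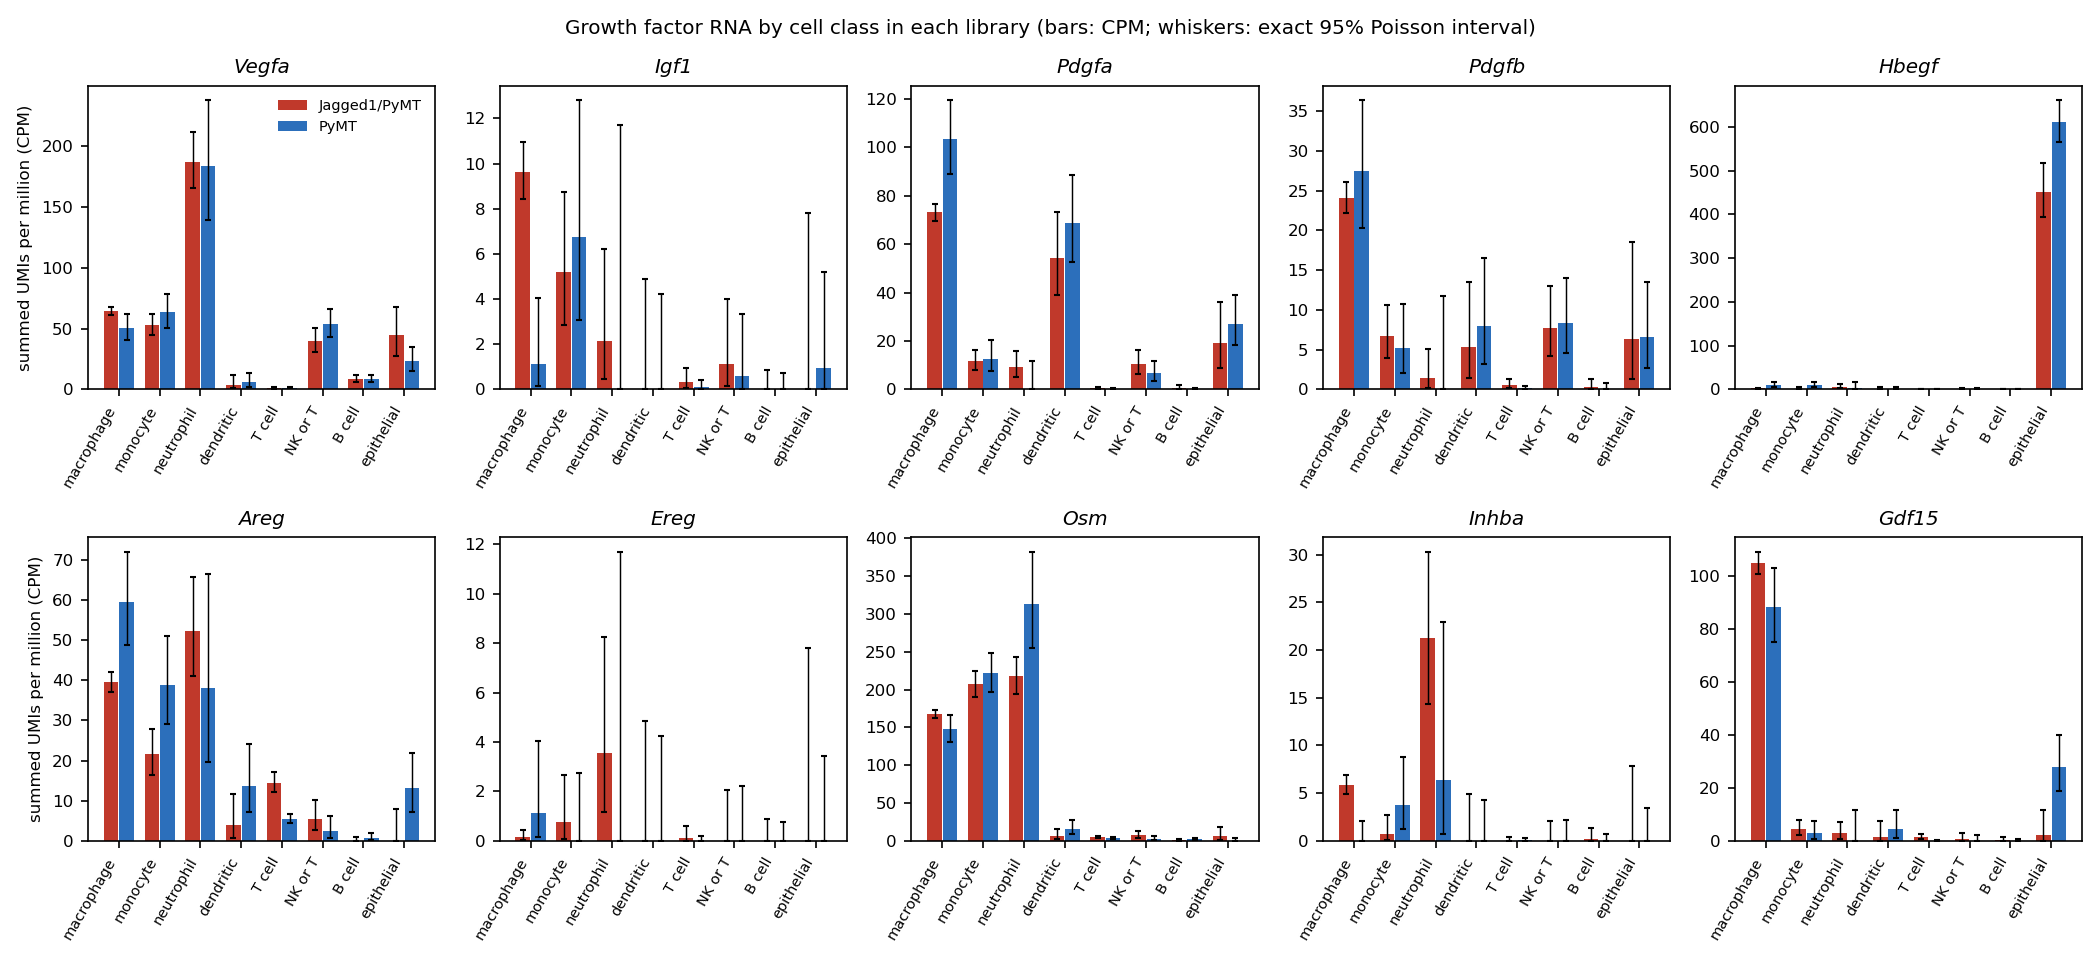
Level of each growth factor in each cell class, as UMIs summed per class and divided by the class total (CPM, linear axes that differ between panels), with exact 95% Poisson intervals as whiskers; Jagged1/PyMT is red and PyMT blue. Vegfa and Osm stand highest in neutrophil-like cells, Gdf15 in macrophage-like cells and Hbegf in epithelial-like cells in both libraries.

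Vegfa (chr17:46016993-46032369 in GRCm38, minus strand), the main inducer of new vessels, had its highest level in neutrophil-like cells in both genotypes. Neutrophil-like cells held 187 CPM in Jagged1/PyMT (95% exact Poisson interval 166 to 211) and 184 CPM in PyMT (140 to 238). Barcodes with core genes of more than 1 lineage made up 45.2% of these cells in Jagged1/PyMT and 25.0% in PyMT. Without them, neutrophil-like Vegfa stood at 235 CPM in Jagged1/PyMT and 203 CPM in PyMT. Macrophage-like cells held 64.7 CPM in Jagged1/PyMT (61.5 to 68.0) and 50.5 CPM in PyMT (40.6 to 62.1), a ratio of 1.28 (95% exact conditional binomial interval 1.04 to 1.60). Neutrophil-like cells stood apart from the next class in both libraries, whereas macrophage-like and monocyte-like cells overlapped, at 52.7 CPM for monocyte-like cells in Jagged1/PyMT and 63.7 CPM in PyMT. A Vegfa UMI was found in 30.9% of Jagged1/PyMT and 28.0% of PyMT neutrophil-like cells, at median depths of 2832 and 2511 UMIs. In T cell-like cells, which gave the background, the share was 0.374% in Jagged1/PyMT and 0.523% in PyMT at deeper medians of 3641 and 3796 UMIs. NK or T cell-like cells were the only lymphoid class with much Vegfa, at 39.8 CPM in Jagged1/PyMT and 53.7 CPM in PyMT. Within that class the UMIs lay in a cluster led by Gzmb, with 63.3 CPM in Jagged1/PyMT and 98.3 CPM in PyMT, a ratio of 0.644 (0.460 to 0.900). The neighbouring Eomes-led cluster held 1.48 CPM in Jagged1/PyMT and 14.7 CPM in PyMT. Free RNA, taken from barcodes under 100 UMIs, carried Vegfa at 50.1 CPM in Jagged1/PyMT and 22.99 CPM in PyMT. Free RNA was estimated, from B cell core genes, at 5.90% of NK or T cell-like UMIs in Jagged1/PyMT and 7.04% in PyMT, and its subtraction left 36.8 CPM of Vegfa in Jagged1/PyMT and 52.1 CPM in PyMT.

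Subdivision at a finer resolution split the Vegfa level within myeloid classes. In Jagged1/PyMT, macrophage-like cells of a cluster led by Arg1 and Rsad2 held 129 CPM and those of a Ccl3-led cluster 53.9 CPM, a ratio between clusters of 2.40 (2.16 to 2.66). In PyMT the same clusters stood at 64.9 and 65.5 CPM, a ratio of 0.992 (0.583 to 1.63), with only 18 cells in the Arg1-led cluster against 391 in Jagged1/PyMT. Arg1 encodes arginase 1, a classic marker of alternatively activated macrophages, and Ccl3 encodes an inflammatory chemokine. Neutrophil-like cells of Jagged1/PyMT also divided, with 231 CPM in a G0s2-led cluster of 292 cells and 96.4 CPM in an Ngp-led cluster of 51 cells, Ngp being a granule gene of immature neutrophils. The ratio between those clusters was 2.39 (1.72 to 3.39), and it could not be read in PyMT, where 3 cells were Ngp-led.

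Pdgfa, which encodes the A chain of PDGF, was shared by macrophage-like and dendritic cell-like cells. Macrophage-like cells held 73.1 CPM in Jagged1/PyMT (69.7 to 76.6) and 103 CPM in PyMT (88.9 to 119), a ratio of 0.708 (0.608 to 0.828). With the libraries clustered apart, they held 74.3 CPM in Jagged1/PyMT and 79.5 CPM in PyMT. At finer resolution the ratio was 0.550 (0.456 to 0.669) in the Ccl3-led cluster and 1.54 (0.999 to 2.51) in the Arg1-led cluster. Dendritic cell-like cells followed with 54.1 CPM in Jagged1/PyMT (38.8 to 73.3) and 68.9 CPM in PyMT (52.6 to 88.7), and the mature dendritic cluster, led by Fscn1 and Ccl22, held 72.8 and 84.2 CPM in those libraries. Every other immune class lay at 12.7 CPM or below, and B cell-like cells held 2 Pdgfa UMIs in Jagged1/PyMT and none in PyMT. Pdgfb, which encodes the B chain and recruits pericytes, had its top level in macrophage-like cells, at 24.1 CPM in Jagged1/PyMT (22.1 to 26.1) and 27.5 CPM in PyMT (20.4 to 36.4). Its ratio of 0.875 (0.653 to 1.20) gave no difference beyond counting error. Both PDGF chains stood highest in the same class, and NK or T cell-like cells came second for Pdgfb with 7.73 CPM in Jagged1/PyMT and 8.35 CPM in PyMT. Free RNA held Pdgfb at 17.03 CPM in Jagged1/PyMT and 6.19 CPM in PyMT, and after its subtraction macrophage-like cells held 22.6 CPM in Jagged1/PyMT and 27.1 CPM in PyMT.

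Areg encodes amphiregulin, an EGF receptor ligand that regulatory T cells and myeloid cells are known to use in tissue repair. Its promoter is shown because Areg was the factor with folds past 1.5 in opposite directions in different classes. The 250 bases before the start of Areg at chr5:91139349-91139598 (RefSeq, GRCm38.p6, plus strand) read as follows, with a cyclic AMP response element (TGACGTCA) and a TATA box (TATAAA) in capitals.
Areg promoter: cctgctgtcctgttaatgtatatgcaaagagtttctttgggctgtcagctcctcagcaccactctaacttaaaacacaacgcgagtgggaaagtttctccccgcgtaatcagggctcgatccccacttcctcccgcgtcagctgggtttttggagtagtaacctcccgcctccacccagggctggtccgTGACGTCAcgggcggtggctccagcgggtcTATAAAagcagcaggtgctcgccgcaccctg
The first base of TGACGTCA lies 61 bases before the start and that of TATAAA 31 bases before it. Both motifs were searched on both strands and do not overlap. TGACGTCA was in 1.55% and TATAAA in 12.4% of 32851 mouse promoter windows of 250 bases. Windows were matched for 6 of the 10 factors; among these TGACGTCA was in Areg alone and TATAAA in Areg and Inhba. These matches describe the letters and do not show that a factor binds there. Ereg lies beside Areg on chromosome 5, from 91074622 to 91093646 against 91139599 to 91148432 in GRCm38, both on the plus strand.

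Areg was higher in Jagged1/PyMT in T cell-like cells and lower in macrophage-like and monocyte-like cells. In T cell-like cells it stood at 14.5 CPM in Jagged1/PyMT (12.1 to 17.2) and 5.57 CPM in PyMT (4.54 to 6.76), a ratio of 2.60 (1.99 to 3.40). In macrophage-like cells it stood at 39.5 CPM in Jagged1/PyMT and 59.5 CPM in PyMT, 1.51-fold lower in Jagged1/PyMT (ratio 0.664, 0.543 to 0.820). Monocyte-like cells held 21.5 CPM in Jagged1/PyMT and 38.9 CPM in PyMT, a ratio of 0.553 (0.374 to 0.820), from 7 Jagged1/PyMT and 8 PyMT cells with a UMI. After subtraction of free RNA, estimated at 35.5% of monocyte-like UMIs in Jagged1/PyMT and 3.25% in PyMT, they held 12.7 CPM in Jagged1/PyMT and 38.8 CPM in PyMT. The difference between classes in direction was not tested. Neutrophil-like cells held 52.3 CPM in Jagged1/PyMT, in 14 cells, and 38.03 CPM in PyMT, where 11 of 12 UMIs came from 1 cell. The macrophage-like difference sat at the 1.5-fold line and was not found in cells thinned to 1000 UMIs, where Areg had 70 UMIs in Jagged1/PyMT and 6 in PyMT at a log2 ratio of 0.02. With the libraries clustered apart it was -0.10.

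Most T cell-like Areg UMIs lay in the regulatory T cell-like cluster, in which not every cell held a Foxp3 UMI. Of 132 T cell-like Areg UMIs in Jagged1/PyMT, 127 lay in the cluster with Foxp3, Ctla4, Il2ra and Ikzf2 among its leading genes, and in PyMT 101 of 102 did. That cluster had 148 cells in Jagged1/PyMT and 313 in PyMT and held Areg at 180 CPM in Jagged1/PyMT and 66.0 CPM in PyMT, a ratio of 2.72 (2.08 to 3.57). An Areg UMI was found in 31 of its Jagged1/PyMT cells, or 20.9% (exact binomial interval 14.7% to 28.4%), and in 30 of its PyMT cells, or 9.58% (6.56% to 13.4%). The remaining T cell-like cells held 5 Areg UMIs in 2257 Jagged1/PyMT cells and 1 UMI in 4272 PyMT cells. Barcodes with core genes of more than 1 lineage made up 31.8% of the cluster in Jagged1/PyMT and 10.2% in PyMT. Without them the ratio was 2.88 (2.10 to 3.96), and in cells with a Foxp3 UMI (46 in Jagged1/PyMT, 98 in PyMT) it was 2.69 (1.87 to 3.88). In both subsets, however, the intervals of the share of cells with an Areg UMI overlapped between the libraries. Without those barcodes the share was 16.8% (10.1% to 25.6%) in Jagged1/PyMT and 9.61% (6.43% to 13.7%) in PyMT. In cells with a Foxp3 UMI it was 28.3% (15.99% to 43.5%) in Jagged1/PyMT and 17.3% (10.4% to 26.3%) in PyMT. Cells with a Foxp3 UMI held 67 of the 127 Areg UMIs in Jagged1/PyMT and 59 of the 101 in PyMT. At finer resolution, a small gamma-delta T cell-like cluster led by Il17a separated. It held Areg at 290 CPM in 20 Jagged1/PyMT cells and 154 CPM in 12 PyMT cells. The finer regulatory T cell-like cluster held 159 CPM in Jagged1/PyMT and 70.2 CPM in PyMT, a ratio of 2.26 (1.68 to 3.06). Free RNA held Areg at 24.8 CPM in Jagged1/PyMT and 4.42 CPM in PyMT, below the regulatory T cell-like level in each library. Of 14 dissociation stress genes, 4 were over 1.5-fold higher in T cell-like cells of Jagged1/PyMT, and their summed level was 5950 CPM in Jagged1/PyMT and 5398 CPM in PyMT; their part in the Areg ratio was not tested.

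The macrophage-like Areg sat in different finer clusters in the 2 libraries. In Jagged1/PyMT the Arg1-led cluster held 80.0 CPM and the Ccl3-led cluster 33.6 CPM, a ratio of 2.38 (2.08 to 2.73). In PyMT the Arg1-led cluster held 14.8 CPM, from 5 UMIs in 18 cells, and the Ccl3-led cluster 96.2 CPM, a ratio of 0.153 (0.0487 to 0.370). Only 94 of 2244 macrophage-like cells in Jagged1/PyMT and 17 of 220 in PyMT had an Areg UMI. The 5 highest of these cells gave 30.8% of the class's Areg UMIs in Jagged1/PyMT and 71.7% in PyMT, so the PyMT level rests on few cells.

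**Figure D2:**
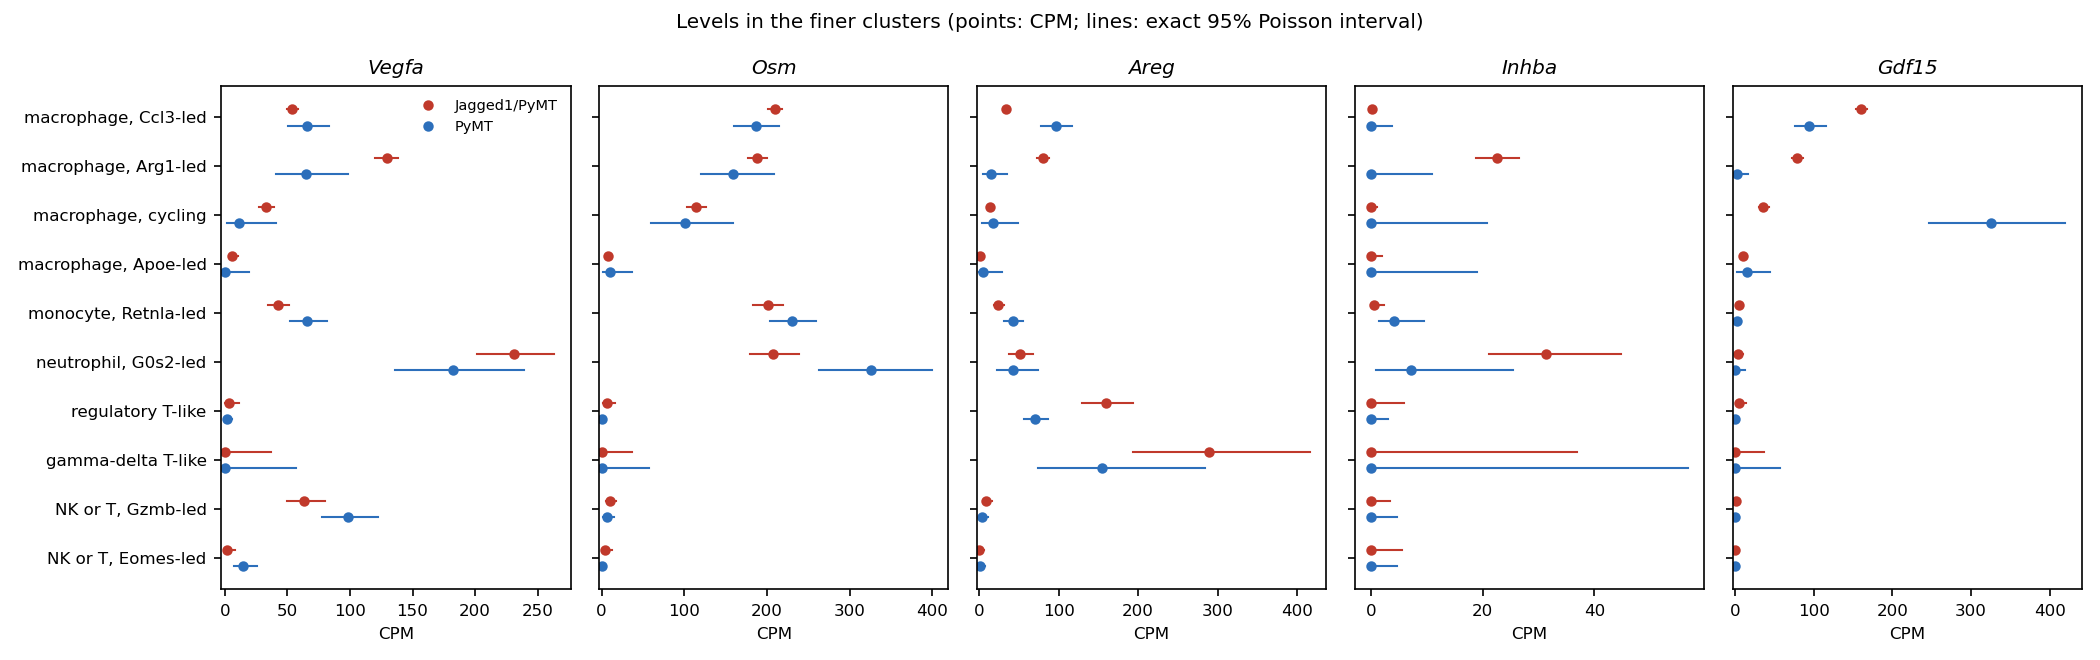
Level in finer clusters (CPM, linear axes that differ between panels; points, with exact 95% Poisson intervals as lines; Jagged1/PyMT red above PyMT blue). Areg is high in the regulatory T-like and gamma-delta T-like clusters, at 159 and 290 CPM in Jagged1/PyMT, and Inhba is above 20 CPM in the Arg1-led macrophage and G0s2-led neutrophil clusters of Jagged1/PyMT alone.

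Hbegf encodes HB-EGF, a ligand of the EGF receptor and of ERBB4. It was an epithelial-like transcript in this sort, at 452 CPM in Jagged1/PyMT (393 to 516) and 611 CPM in PyMT (565 to 660), a ratio of 0.739 (0.630 to 0.863). Of the 213 Jagged1/PyMT epithelial-like UMIs, 131 came from 1 cell, and 17 of 51 cells had a UMI against 52 of 104 in PyMT. Macrophage-like cells held 1.92 CPM in Jagged1/PyMT (1.41 to 2.56) and 10.7 CPM in PyMT (6.42 to 16.7), 5.55-fold lower in Jagged1/PyMT. Both levels lay under free RNA, at 3.41 CPM in Jagged1/PyMT and 22.99 CPM in PyMT; after subtraction of free RNA, estimated at 8.71% of macrophage-like UMIs in Jagged1/PyMT and 5.94% in PyMT, 1.63 CPM were left in Jagged1/PyMT and 9.30 CPM in PyMT. Only 28 Jagged1/PyMT and 9 PyMT macrophage-like cells had an Hbegf UMI. Without barcodes that held core genes of more than 1 lineage, 23 UMIs in Jagged1/PyMT and 2 in PyMT were left, with a log2 ratio of -0.56. Ereg, which encodes epiregulin, a further EGF family ligand, allowed no comparison: macrophage-like cells held 4 UMIs in Jagged1/PyMT and 2 in PyMT, and neutrophil-like cells 5 in Jagged1/PyMT and none in PyMT.

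Osm encodes oncostatin M, a cytokine of the IL-6 family, and was the factor found in the largest share of monocyte-like and neutrophil-like cells in both libraries and of macrophage-like cells in Jagged1/PyMT. In PyMT macrophage-like cells it was found in 76 of 220, next to Pdgfa in 77. Neutrophil-like cells held 218 CPM in Jagged1/PyMT (194 to 244) and 314 CPM in PyMT (255 to 382), a ratio of 0.694 (0.552 to 0.880). Without barcodes that held core genes of more than 1 lineage, they held 295 CPM in Jagged1/PyMT and 375 CPM in PyMT. Monocyte-like cells held 207 CPM in Jagged1/PyMT (190 to 225) and 222 CPM in PyMT (197 to 248), with a UMI in 60.8% and 55.5% of cells of those libraries. Macrophage-like cells held 168 CPM in Jagged1/PyMT (163 to 173) and 148 CPM in PyMT (130 to 167), a ratio of 1.14 (1.003 to 1.29). The intervals of neutrophil-like and monocyte-like cells overlapped in Jagged1/PyMT, those of all 3 classes lay apart in PyMT, and lymphoid classes lay far below, at 4.94 CPM in T cell-like cells of Jagged1/PyMT and 3.76 CPM in PyMT. The share of cells with an Osm UMI was 47.6% of Jagged1/PyMT and 34.5% of PyMT macrophage-like cells, at medians of 9821.5 and 5964.5 UMIs, against 0.307% and 0.799% of B cell-like cells at 3179 and 3490.5 UMIs. In cells thinned to 1000 UMIs, 11.4% of Jagged1/PyMT and 9.14% of PyMT macrophage-like cells kept an Osm UMI. Macrophage-like cells were not uniform. The shallow Apoe-led cluster held 8.02 CPM in Jagged1/PyMT, whereas the cluster led by Il1a and Mmp12 held 202 CPM in Jagged1/PyMT and 180 CPM in PyMT. In PyMT the Apoe-led cluster had 107 cells, at a median of 1577 UMIs, and the Il1a- and Mmp12-led cluster 103. The direction of the Osm ratio differed between macrophage-like and neutrophil-like cells, and this difference was not tested.

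Gdf15, a stress-induced relative of TGF-beta, was close to exclusive to macrophage-like cells among immune classes. It stood there at 105 CPM in Jagged1/PyMT (101 to 109) and 88.2 CPM in PyMT (74.9 to 103), and no other immune class exceeded 4.59 CPM. Of the immune Gdf15 UMIs, 98.7% in Jagged1/PyMT and 94.6% in PyMT lay in macrophage-like cells. The level rested on few cells, with a UMI in 236 of 2244 Jagged1/PyMT and 21 of 220 PyMT macrophage-like cells. In the cycling macrophage-like cluster, PyMT held 58 Gdf15 UMIs, of which 57 were in 1 cell, against 128 UMIs in Jagged1/PyMT. In the macrophage-like cluster led by Il1a and Mmp12, Gdf15 stood at 132 CPM in Jagged1/PyMT and 71.3 CPM in PyMT, a ratio of 1.86 (1.51 to 2.30). Over the whole class the ratio was 1.19 (1.01 to 1.41). Without barcodes that held core genes of more than 1 lineage, 1463 UMIs in Jagged1/PyMT and 35 in PyMT were left, with a log2 ratio of 1.30. Epithelial-like cells of PyMT held 28.0 CPM and those of Jagged1/PyMT 1 UMI, equal to 2.12 CPM.

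Inhba, which encodes the chain of activin A, had 172 UMIs in the immune classes of Jagged1/PyMT and 8 in those of PyMT. Macrophage-like cells held 139 Inhba UMIs in Jagged1/PyMT, or 5.81 CPM (4.88 to 6.86), in 16 cells, and none in PyMT. Set against a floor of 3 counts in the PyMT class, this gave a ratio of 3.45, with a lower counting limit of 2.77. In cells thinned to 1000 UMIs, 14 UMIs were left in Jagged1/PyMT and none in PyMT, too few to tell the libraries apart. Of the 139 UMIs, 137 lay in the Arg1-led cluster, and the 5 highest cells gave 70.5% of them. Neutrophil-like cells held 30 UMIs in 12 cells of Jagged1/PyMT, or 21.2 CPM, and 2 UMIs in PyMT, or 6.34 CPM (ratio 3.35, 0.849 to 28.9). All 30 were in the G0s2-led cluster, 17 of them in 1 cell. Without barcodes that held core genes of more than 1 lineage, neutrophil-like Inhba stood at 11.7 CPM in Jagged1/PyMT and 10.1 CPM in PyMT. The PyMT library had 1781017 macrophage-like UMIs, and 0 counts among them allow up to 1.68 CPM.

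Igf1 encodes insulin-like growth factor 1, which tissue-resident macrophages are known to make. Macrophage-like cells held 230 Igf1 UMIs in Jagged1/PyMT, or 9.61 CPM (8.41 to 10.9), and 2 in PyMT, or 1.12 CPM (0.136 to 4.06), a ratio of 8.56 (2.34 to 71.1). Free RNA held Igf1 at 12.7 CPM in Jagged1/PyMT and 1.77 CPM in PyMT, and after its subtraction 8.51 CPM were left in macrophage-like cells of Jagged1/PyMT and 1.02 CPM in those of PyMT. The highest Igf1 level among macrophage-like clusters was in the shallow Apoe-led cluster, at 20.9 CPM in Jagged1/PyMT and 9.30 CPM in PyMT, where PyMT again rests on 2 UMIs. Monocyte-like cells held 5.20 CPM in Jagged1/PyMT and 6.74 CPM in PyMT.

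Counting folds past 1.5 among factors with at least 50 UMIs in a class over both libraries, macrophage-like cells had 9 such factors: 2 were higher in Jagged1/PyMT (Igf1 and Inhba), 2 lower (Hbegf and Areg), and 5 within 1.5-fold. Of all 10287 genes counted in that class, 10.1% were higher and 10.2% lower. Counts of 2 among 9 factors are too small to set the factors apart from that background. The median log2 ratio of the 9 was 0.19, beside 0.03 over all genes. In T cell-like cells 2 factors were counted: Areg was higher, beside 4.93% of 9420 genes, none was lower, beside 6.39%, and Osm lay within. In monocyte-like cells 3 were counted, none higher (6.97% of genes) and Areg lower (7.77%). In neutrophil-like cells Vegfa, Areg and Osm were counted and none passed, beside 18.5% of genes higher and 13.4% lower. The other classes had 1 counted factor each, and none passed: Pdgfa in dendritic cell-like cells (8.94% higher, 7.49% lower), Vegfa in NK or T cell-like cells (9.27% and 9.07%), Vegfa in B cell-like cells (4.34% and 6.19%) and Hbegf in epithelial-like cells (7.81% and 12.3%). Of 14 stress genes that tissue dissociation induces, 6 passed the 1.5-fold line upward in the Jagged1/PyMT macrophage-like class and none downward, with a summed level of 14353 CPM in Jagged1/PyMT and 10407 CPM in PyMT. T cell markers in the macrophage-like class summed to 333 CPM in Jagged1/PyMT and 614 CPM in PyMT, with none of the 6 at 0. The part of either in the ratios was not tested.

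**Figure D3:**
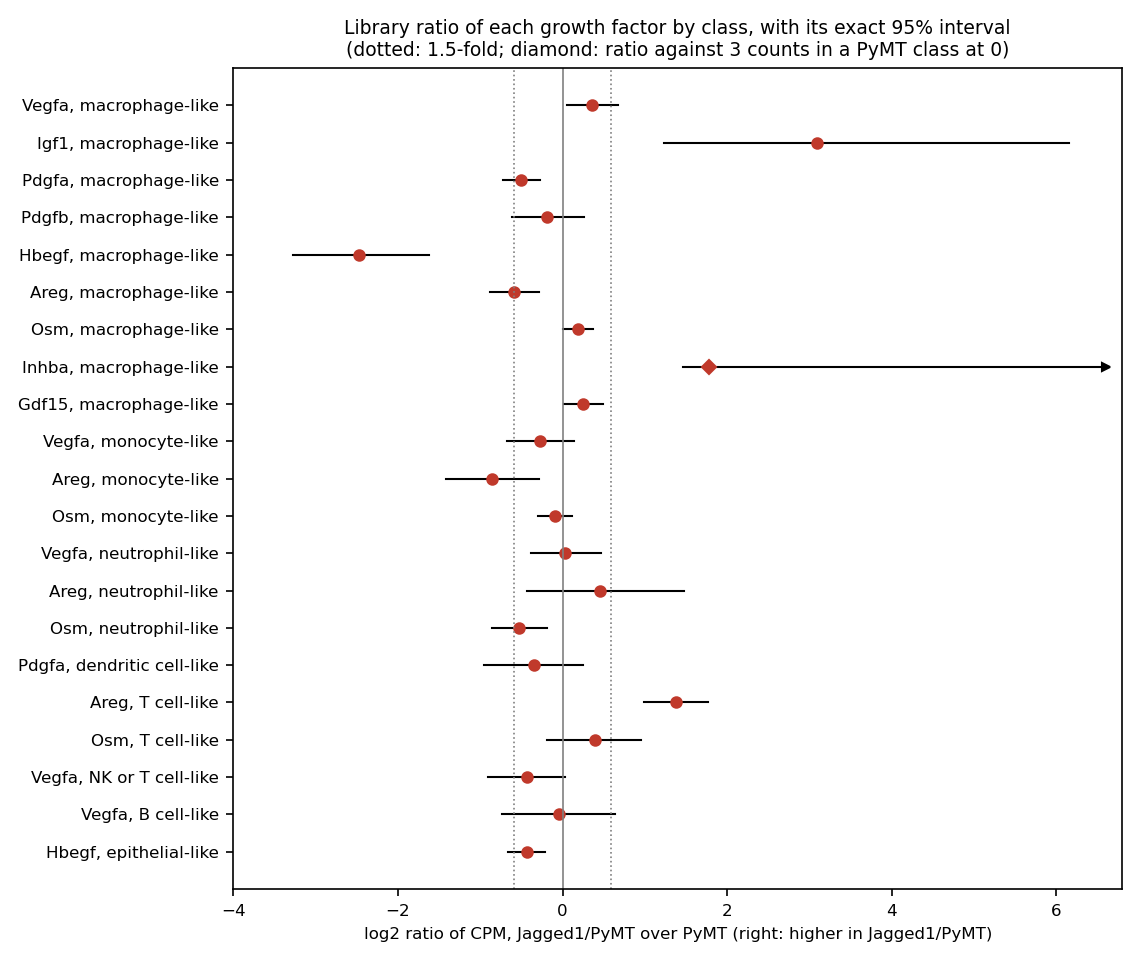
Log2 ratio of CPM, Jagged1/PyMT over PyMT, for each factor with at least 50 UMIs in a class, with its exact 95% conditional binomial interval; dotted lines mark 1.5-fold. Most points lie between the dotted lines; Areg in T cell-like cells (log2 1.38) lies to the right and Hbegf in macrophage-like cells (log2 -2.47) to the left, and the diamond is Inhba set against 3 counts.

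The level over all sorted immune cells differed more than the level per class for several factors. Over the immune classes together, Osm stood at 113 CPM in Jagged1/PyMT and 25.9 CPM in PyMT, a ratio of 4.35 (4.03 to 4.70), beside 1.14 within macrophage-like cells. Vegfa stood at 47.2 CPM in Jagged1/PyMT and 13.5 CPM in PyMT, a ratio of 3.49 (3.14 to 3.90), beside 1.28 within macrophage-like cells. Pdgfa stood at 42.3 CPM in Jagged1/PyMT and 9.50 CPM in PyMT, a ratio of 4.45 (3.92 to 5.07), beside 0.708 within macrophage-like cells. The ratio was 5.16 for Pdgfb, 10.2 for Gdf15 and 2.79 for Areg, and for Hbegf it was 1.29 (0.854 to 1.99). Beside these totals, macrophage-like cells made up 32.8% of immune cells in Jagged1/PyMT and 3.26% in PyMT.

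For Vegfa, Osm, Areg and Pdgfa the share of immune UMIs that macrophage-like cells carried was larger in Jagged1/PyMT, and for Osm the leading class differed between the libraries. Macrophage-like cells carried 74.7% of immune Vegfa UMIs in Jagged1/PyMT and 22.8% in PyMT, where NK or T cell-like cells also carried 22.8% and monocyte-like cells 21.5%. Of immune Osm UMIs they carried 81.1% in Jagged1/PyMT and 34.7% in PyMT, where monocyte-like cells carried 39.1%. Of immune Areg UMIs they carried 77.4% in Jagged1/PyMT and 36.3% in PyMT, where T cell-like cells carried 34.9%. For Pdgfa the macrophage-like share was 94.1% in Jagged1/PyMT and 66.2% in PyMT, with 21.6% in dendritic cell-like cells of PyMT. Gdf15 alone of these kept over 90% of its UMIs in the same class in both libraries.

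**Figure D4:**
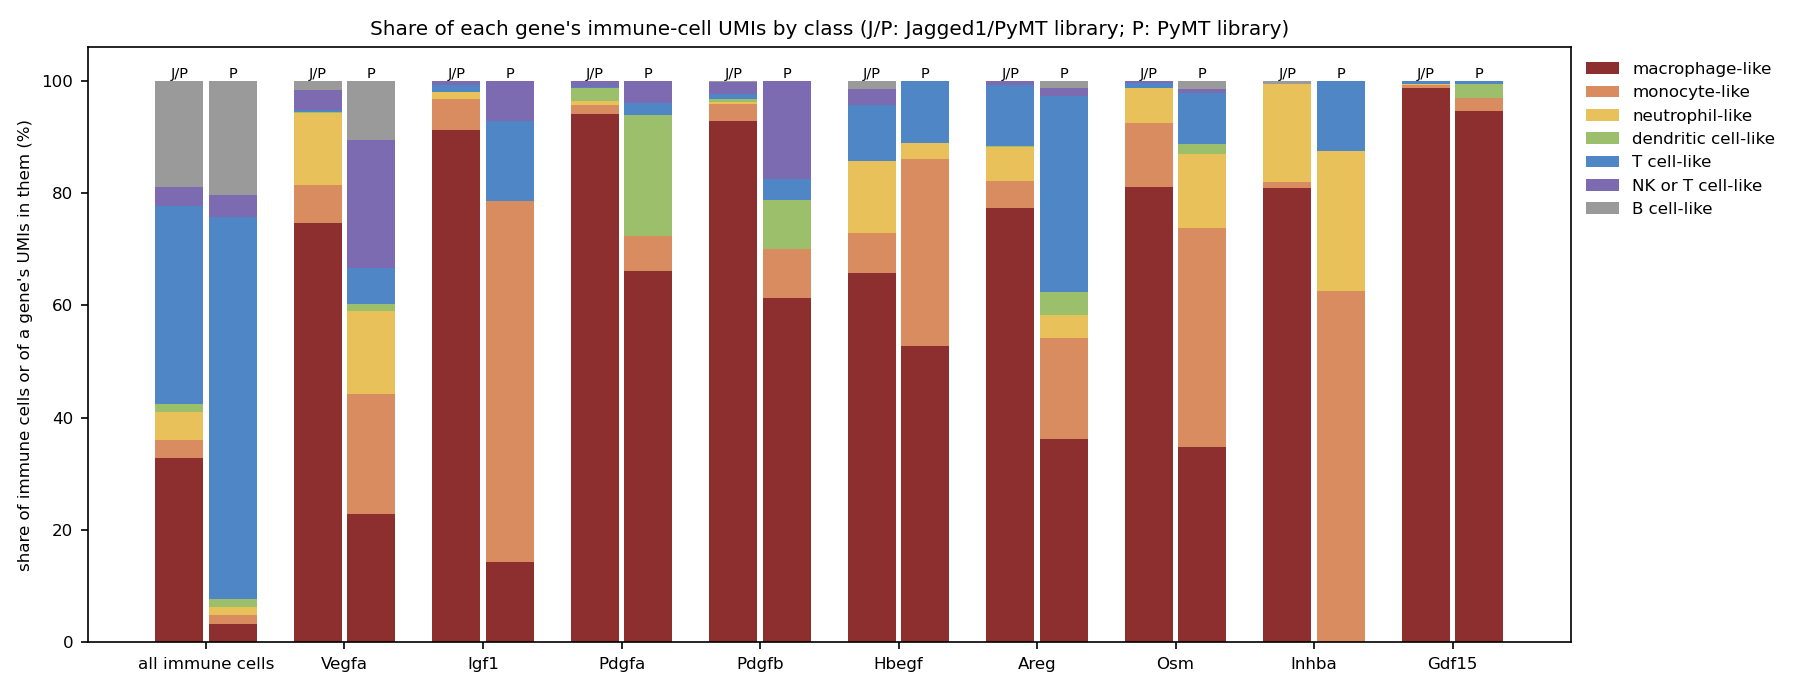
Share (%) of the immune cells (leftmost pair) and of each factor's immune UMIs held by each class, with the Jagged1/PyMT bar left of the PyMT bar in each pair. Macrophage-like cells (dark red) are 32.8% of immune cells in Jagged1/PyMT and 3.26% in PyMT, and their share of Vegfa, Areg and Osm UMIs is larger in Jagged1/PyMT, while Gdf15 is almost wholly theirs in both; the PyMT bars of Igf1, Hbegf and Inhba rest on 14, 36 and 8 UMIs.

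Among macrophage-like cells, Areg and Gdf15 were concentrated in fewer of the cells that had them than Osm and Pdgfa were. In Jagged1/PyMT, 11 of 94 cells with Areg gave 50% of its UMIs and 24 of 236 did so for Gdf15, against 202 of 1068 for Osm and 193 of 862 for Pdgfa. In PyMT the numbers were 2 of 17 for Areg, 2 of 21 for Gdf15, 17 of 76 for Osm and 18 of 77 for Pdgfa. Cells with Gdf15 held on average 10.6 UMIs of it in Jagged1/PyMT and 7.48 in PyMT, whereas cells with Osm held 3.76 UMIs in Jagged1/PyMT and 3.46 in PyMT. Of 94 Jagged1/PyMT cells with Areg, 51 (54.3%) also had Vegfa, beside 24.3% of the whole class, and 9 (9.57%) had Gdf15, beside 10.5%. Of 236 with Gdf15, 177 (75.0%) also had Osm, beside 47.6%, and of 16 with Inhba, 12 had Vegfa. These shares were not matched for the depth of the cells. At least 1 of the 10 factors was found in 68.5% of Jagged1/PyMT and 54.5% of PyMT macrophage-like cells, and at least 3 in 24.8% and 23.2%. Thinned to 1000 UMIs, the share with at least 1 was 27.8% in Jagged1/PyMT and 22.6% in PyMT, against 1.76% and 0.975% of T cell-like cells. Other myeloid classes were similar or higher when thinned. Neutrophil-like cells stood at 31.6% in Jagged1/PyMT and 33.7% in PyMT, and monocyte-like cells at 22.0% and 24.5%. Dendritic cell-like cells stood lower, at 8.42% and 13.5%.

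**Figure D5:**
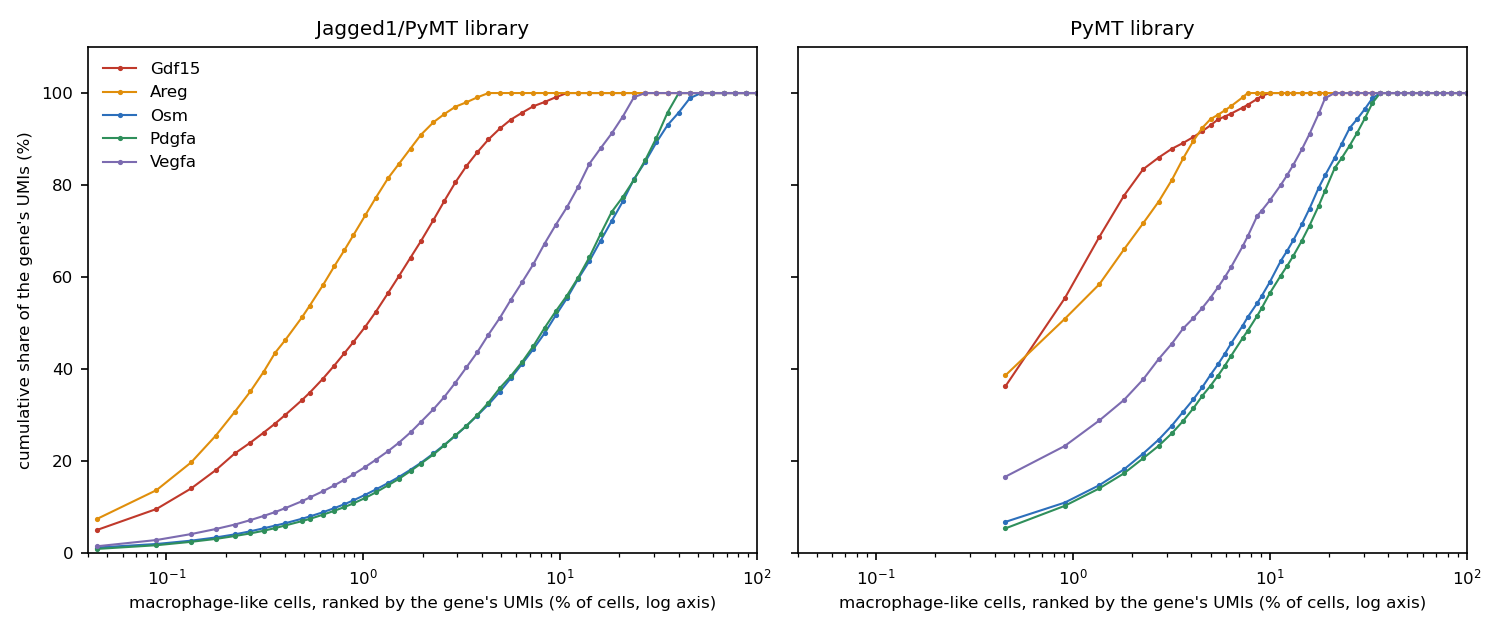
Cumulative share (%) of a factor's UMIs against the macrophage-like cells ranked by their UMIs of it (% of the class, log axis), for Jagged1/PyMT (left) and PyMT (right). The Areg and Gdf15 curves climb first in both libraries, since 11 Areg cells and 24 Gdf15 cells of Jagged1/PyMT give 50% of the UMIs, against 202 cells for Osm.

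Partners of these factors were read from lists of ligands, receptors, inhibitors and mediators, by the same 1.5-fold rule and the same shares of all genes as above. EGF ligand shedding (Adam17, Adam10, Rhbdf1 and Rhbdf2) was within 1.5-fold for all 4 genes in macrophage-like cells, and Adam17, the main sheddase of amphiregulin, stood there at 115 CPM in Jagged1/PyMT and 110 CPM in PyMT. In dendritic cell-like cells Adam17 was the only shedding gene counted and was higher, at 98.9 CPM in Jagged1/PyMT and 49.4 CPM in PyMT. Free RNA held Adam17 at 56.9 CPM in Jagged1/PyMT and 27.4 CPM in PyMT, and its part was not tested. In T cell-like cells 1 of 3 counted shedding genes passed. Rhbdf2, a partner that carries ADAM17 to the surface, was higher, at 5.81 CPM in Jagged1/PyMT and 3.16 CPM in PyMT (ratio 1.84, 1.24 to 2.71). Free RNA held Rhbdf2 at 11.7 CPM in Jagged1/PyMT and 7.07 CPM in PyMT, above both levels, and its part was not tested. The receptors for the EGF ligands were counted in epithelial-like cells only, where Egfr stood at 33.9 CPM in Jagged1/PyMT and 33.7 CPM in PyMT, and Erbb3 at 48.8 and 56.1 CPM in those libraries, both within 1.5-fold.

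On the VEGF side, macrophage-like cells had 2 of 4 other ligands counted. Vegfb, a ligand of VEGFR1, was higher, at 16.8 CPM in Jagged1/PyMT and 10.7 CPM in PyMT (ratio 1.58, 0.998 to 2.65), and Pgf, placental growth factor, 3.05-fold lower, at 1.84 and 5.61 CPM. Of 3 receptors counted, the co-receptor Nrp2 was 1.79-fold lower, at 28.2 CPM in Jagged1/PyMT and 50.5 CPM in PyMT, Kdr was higher at 68 UMIs against 3 (ratio 1.69, 0.553 to 8.38), and Nrp1 lay within. Monocyte-like cells differed in Nrp1, with 56.1 CPM in Jagged1/PyMT and 21.7 CPM in PyMT (ratio 2.58, 1.73 to 3.99). Free RNA held Nrp1 at 31.6 CPM in Jagged1/PyMT and 9.72 CPM in PyMT, and its part was not tested. Of the other angiogenic factors, Hgf, Thbs1 and Adm were counted in macrophage-like cells and all 3 were within 1.5-fold. In epithelial-like cells Pgf was far higher, at 153 CPM in Jagged1/PyMT and 10.3 CPM in PyMT (ratio 14.8, 7.82 to 31.1).

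Of the receptors for oncostatin M and its relatives, 4 were counted in macrophage-like cells, none higher and 2 lower. Il6st, which encodes the shared subunit gp130, was 1.75-fold lower, at 18.6 CPM in Jagged1/PyMT and 32.6 CPM in PyMT. Free RNA held Il6st at 34.1 CPM in Jagged1/PyMT and 76.9 CPM in PyMT, above both levels, and its part was not tested. Il11ra1 was 1.57-fold lower, at 24.3 CPM in Jagged1/PyMT and 38.2 CPM in PyMT. Osmr, the specific receptor subunit, was counted in epithelial-like cells, at 29.7 CPM in Jagged1/PyMT and 82.3 CPM in PyMT, 2.77-fold lower (ratio 0.361, 0.190 to 0.638). Among the other ligands of the family, Clcf1 was 3.21-fold lower in macrophage-like cells, at 5.60 CPM in Jagged1/PyMT and 17.97 CPM in PyMT. Clcf1 also passed the 1.5-fold line downward in NK or T cell-like cells, at 18.2 CPM in Jagged1/PyMT and 31.0 CPM in PyMT. Epithelial-like cells held 1 UMI of Lif in Jagged1/PyMT and 55 in PyMT.

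Of the IGF ligands and receptors other than Igf1, 2 of 3 counted were lower in macrophage-like cells and 1 of 3 in T cell-like cells. Of the activin receptors 1 of 4 was lower in macrophage-like cells, 1 of 3 in T cell-like cells and 1 of 2 in NK or T cell-like cells. None of either list was higher in these classes. Igf1r, the receptor of IGF-1, was 2.01-fold lower in macrophage-like cells, at 5.60 CPM in Jagged1/PyMT and 11.2 CPM in PyMT. In T cell-like cells it was 2.03-fold lower, at 2.52 and 5.13 CPM. Neutrophil-like cells held the most Igf1r, at 54.5 CPM in Jagged1/PyMT and 88.7 CPM in PyMT, also past the 1.5-fold line downward. Free RNA held Igf1r at 4.87 CPM in Jagged1/PyMT and 8.84 CPM in PyMT, and its part was not tested. Igfbp4, a binding protein that restrains IGF-1, was higher in T cell-like cells at 421 CPM in Jagged1/PyMT and 259 CPM in PyMT (ratio 1.63, 1.56 to 1.70). In monocyte-like cells it stood at 127 CPM in Jagged1/PyMT and 57.7 CPM in PyMT. Free RNA held Igfbp4 at 114 CPM in Jagged1/PyMT and 118 CPM in PyMT. It was estimated at 35.5% of monocyte-like UMIs in Jagged1/PyMT and 3.25% in PyMT, and its part in the Igfbp4 levels was not tested. Smad7, an inhibitor of activin and TGF-beta signalling, was 1.60-fold lower in macrophage-like cells, at 60.5 CPM in Jagged1/PyMT and 97.1 CPM in PyMT, and 1.81-fold lower in monocyte-like cells. In dendritic cell-like cells Smad7 was higher, at 96.3 CPM in Jagged1/PyMT and 61.98 CPM in PyMT (ratio 1.55, 1.08 to 2.25). Free RNA held Smad7 at 136 CPM in Jagged1/PyMT and 253 CPM in PyMT, above the levels in these myeloid classes. Its part in the Smad7 ratios was not tested. The mediators Smad2, Smad3 and Smad4 lay within 1.5-fold in macrophage-like cells, 3 of 3, and Acvr2a, an activin receptor, was 2.16-fold lower in T cell-like cells, at 3.51 CPM in Jagged1/PyMT and 7.58 CPM in PyMT. Neither gene of the GDF15 receptor list (Gfral, Ret) reached 50 UMIs in any class.

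Genes most like each factor were taken by Pearson r of log2(CPM + 10) over 16 points, 8 classes in each of the 2 libraries. These points share libraries and depth, so r is a description. Osm was most like Slc11a1 (r = 0.99), Tgfbi and Lst1. Vegfa was most like Vamp3 (r = 0.94), Hgsnat and Cks2, Areg like Tlr2 (r = 0.90), Slfn5 and Fnip2, and Gdf15 like Col14a1 (r = 0.96), P3h3 and Apbb2. Pdgfa was most like Cadm1, Tnfrsf11a and Clptm1. Pdgfb was most like the proliferation genes Ncapg (r = 0.94) and Mki67, and like Pea15a. This likeness is between classes. In the cycling macrophage-like cluster Pdgfb stood at 21.4 CPM in Jagged1/PyMT and 13.7 CPM in PyMT, the latter from 3 UMIs. The macrophage-like cluster led by Il1a and Mmp12 held 26.9 CPM in Jagged1/PyMT and 32.7 CPM in PyMT.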

How the data were processed

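Gene counts were deposited as 1 unfiltered matrix of UMI counts per genotype, made with Cell Ranger 3.0.2 per the submitters' processing notes, and were used as raw counts. Barcodes were dropped below 500 UMIs, below 250 genes or above 10% mitochondrial UMIs. The automatic Scrublet threshold marked 0% of Jagged1/PyMT and 0.0403% of PyMT barcodes, under 0.5%, and was not used; the highest scores at a rate of 0.8% per 1000 barcodes were removed instead (496 in Jagged1/PyMT, 443 in PyMT). Cells of both libraries were clustered with scanpy 1.11.5 in Python 3.11.15 (2000 variable genes, 30 components, 15 neighbours, Leiden resolution 1, seed 0) without the 10 factors, the genes of their lists, Jag1, or mitochondrial, ribosomal, haemoglobin and receptor variable genes. The class called NK or T cell-like was named after its values were seen. UMIs were summed per class and library; levels have exact 95% Poisson intervals and ratios exact conditional binomial intervals (scipy 1.17.1), which cover counting error only. The interval calculation was tested on simulated Poisson counts only. These lack the concentration of UMIs in single cells seen here, so that check does not show whether the intervals are wide enough for these data. A library at 0 was set to a floor of 3 counts, and factors with at least 50 UMIs over both libraries were counted at 1.5-fold. Thinned values use 1000 UMIs a cell. Free RNA was estimated from B cell core genes (T cell core genes in B cell-like cells). All 10 factors are named, with list genes past 1.5-fold and those of the same list used beside them. Members and lists were chosen with earlier results of these data known. Positions come from GENCODE on GRCm38.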

Additional observations from a re-analysis of the deposited data

Results flagged for a closer look

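Areg differed between the libraries in opposite directions by class. Its log2 ratio of Jagged1/PyMT over PyMT was 1.38 in T cell-like cells, -0.59 in macrophage-like cells and -0.85 in monocyte-like cells. The intervals of all 3 lay off 0, but they cover counting error only. In PyMT, 1 cell gave 38.7% of the macrophage-like Areg UMIs. Osm had a log2 ratio of 0.19 in macrophage-like cells and -0.53 in neutrophil-like cells. With 1 library per genotype, neither difference between classes was tested.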

How the results depend on the processing

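No paired analysis was possible because the matrices carry no replicate numbers, and leaving out a replicate was not possible because the samples of a genotype are pooled. Of 251 recomputed values of 21 ratios of single factors, 209 stayed within the counting interval, 40 moved and 2 reversed. In macrophage-like cells the factors over 1.5-fold higher numbered 2, but 5 with the libraries clustered apart, 4 in cells thinned to 1000 UMIs and 4 as a mean over cells. Those lower numbered 2, but 1 with at least 1000 UMIs and 500 genes, with the libraries clustered apart, thinned, as a mean over cells, at a threshold of 2-fold, and in both settings chosen after seeing the data (set-aside barcodes kept, and the unassigned cluster counted as macrophage-like). In T cell-like cells, 1 was higher, but 2 with at least 1000 UMIs and 500 genes and 6 with no minimum of UMIs, and none was lower, but 1 after free RNA was subtracted. Thinning turned the macrophage-like log2 ratio of Areg to 0.0248. For Inhba it left 14 UMIs in Jagged1/PyMT and 0 in PyMT. The value of -1.30 then comes from setting PyMT to 3 counts and shows no direction. The highest class was a myeloid one for 8 of 10 factors in each library after thinning. Areg in T cell-like cells ranged from 1.08 to 1.74. The causes were not tested. Low counts in PyMT macrophage-like cells limit Igf1, Inhba and Hbegf.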
